A study of Mus musculus with 8 samples.

Results

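The 10 genes described here are the secreted Wnt modulators Sfrp1, Sfrp2, Sfrp4, Sfrp5, Dkk2, Dkk3 and Wif1, and the Wnt targets Ccn4, Axin2 and Lef1. They were taken by symbol from the 53700 rows of a table of read counts in mouse skin, and all 10 passed the filter on low counts, as did 18656 genes in all. The libraries hold RNA that came down with ribosomes carrying a GFP tag, from uninjured skin (n = 3) and from skin at day 3 (n = 2) and day 7 (n = 3) after wounding, where PW3d and PW7d in the titles were read as days after wounding. All mice were AdipoqCreER;R26-NuTRAP and, per the labels, had received tamoxifen. AdipoqCreER is a recombinase that tamoxifen switches on, driven by regulatory sequence of the adiponectin gene, and NuTRAP is a reporter that, once recombined, puts GFP on ribosomes, so that the tag marks cells in which adiponectin regulatory sequence had been active when tamoxifen was given. Mice were 7 to 9 weeks old and in the resting phase of the hair cycle, and the injured ones had 4 full-thickness punch wounds of 5 mm in the skin. The series title asks how adipocytes pass into fibroblasts during repair and what PDGF signalling does in it.

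Wnt proteins are secreted signals that bind Frizzled receptors and the co-receptors Lrp5 and Lrp6. In the canonical branch this stabilises beta-catenin, which then enters the nucleus and acts on target genes together with proteins of the Tcf and Lef family. Secreted frizzled-related proteins (Sfrp) carry a cysteine-rich domain like that of Frizzled and bind Wnt proteins outside the cell, Wif1 binds Wnt proteins through a domain of its own, and Dickkopf proteins such as Dkk2 act on the Lrp co-receptors. In skin, canonical Wnt signalling is best known for its role in hair follicle growth, and in adipose tissue for restraining the differentiation of adipocytes.

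The libraries held 5308959 to 17751689 counts, so that 1 count was worth 0.0612 to 0.206 CPM, the normalised read count relative to the library total used throughout. Adipocyte markers were present in every library, with Adipoq, the gene of adiponectin, at 4910 to 5400 CPM in uninjured skin, 3330 and 3840 CPM at day 3 and 1800 to 5180 CPM at day 7. The summed level of 8 adipocyte markers was 73500 to 92800 CPM in uninjured skin, 66100 to 89200 CPM at day 3 and 45400 to 96300 CPM at day 7. In the edgeR test used below, 0 of the 8 passed in any comparison. At day 7 against uninjured skin, 1 of the 8 had a positive log2 fold change. Their median was -0.67 there, against 0.04 over all genes tested, and DESeq2 called 1 lower, beside 2.91% of all genes. Most of the sum was Cfd and Fabp4. Cidec was at 1010 to 2510 CPM at day 7 and 3830 to 4020 CPM in uninjured skin. Plin1 was at 359 to 782 CPM at day 7 and 849 to 876 CPM in uninjured skin, so that neither overlapped. Genes of other cells were present too. The summed level of 8 skeletal muscle markers was 4320 to 9650 CPM in uninjured skin, 2780 and 4690 CPM at day 3 and 734 to 1320 CPM at day 7, and that of 8 luminal epithelium markers was 11.3 to 26.7 CPM in uninjured skin, 1470 and 25.3 CPM in replicates 1 and 2 of day 3, and 564 to 1220 CPM at day 7. Day 3 replicate 1 thus stood apart from its fellow. In this bulk RNA, fewer cells of a type and less RNA per cell cannot be told apart. The column names of each group share a number prefix that no other group has, so that whatever the prefix marks cannot be told apart from the group.

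At day 7 against uninjured skin, 3 of the 10 genes rose, namely Sfrp2, Dkk3 and Ccn4, and 0 fell in edgeR's quasi-likelihood test (adjusted p under 0.05). Among all genes tested, 5.9% were called higher and 1.77% lower in this comparison. At an unadjusted p under 0.05, 6 of the 10 were higher and 0 lower, against 17.2% and 9.5% of all genes tested, and DESeq2 called 5 higher and 0 lower, against 8.39% and 2.91%. Libraries of day 7 lay above all uninjured libraries for 5 of the 10, namely Sfrp2, Sfrp4, Dkk3, Ccn4 and Axin2, where 16.7% of all genes tested did so. The median log2 fold change of the 10 was 1.38, against 0.04 over all genes tested. The count of 3 rested on single libraries: it was 1 without uninjured replicate 1 or without day 7 replicate 2, and 5 without day 7 replicate 3.

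**Figure D1:**
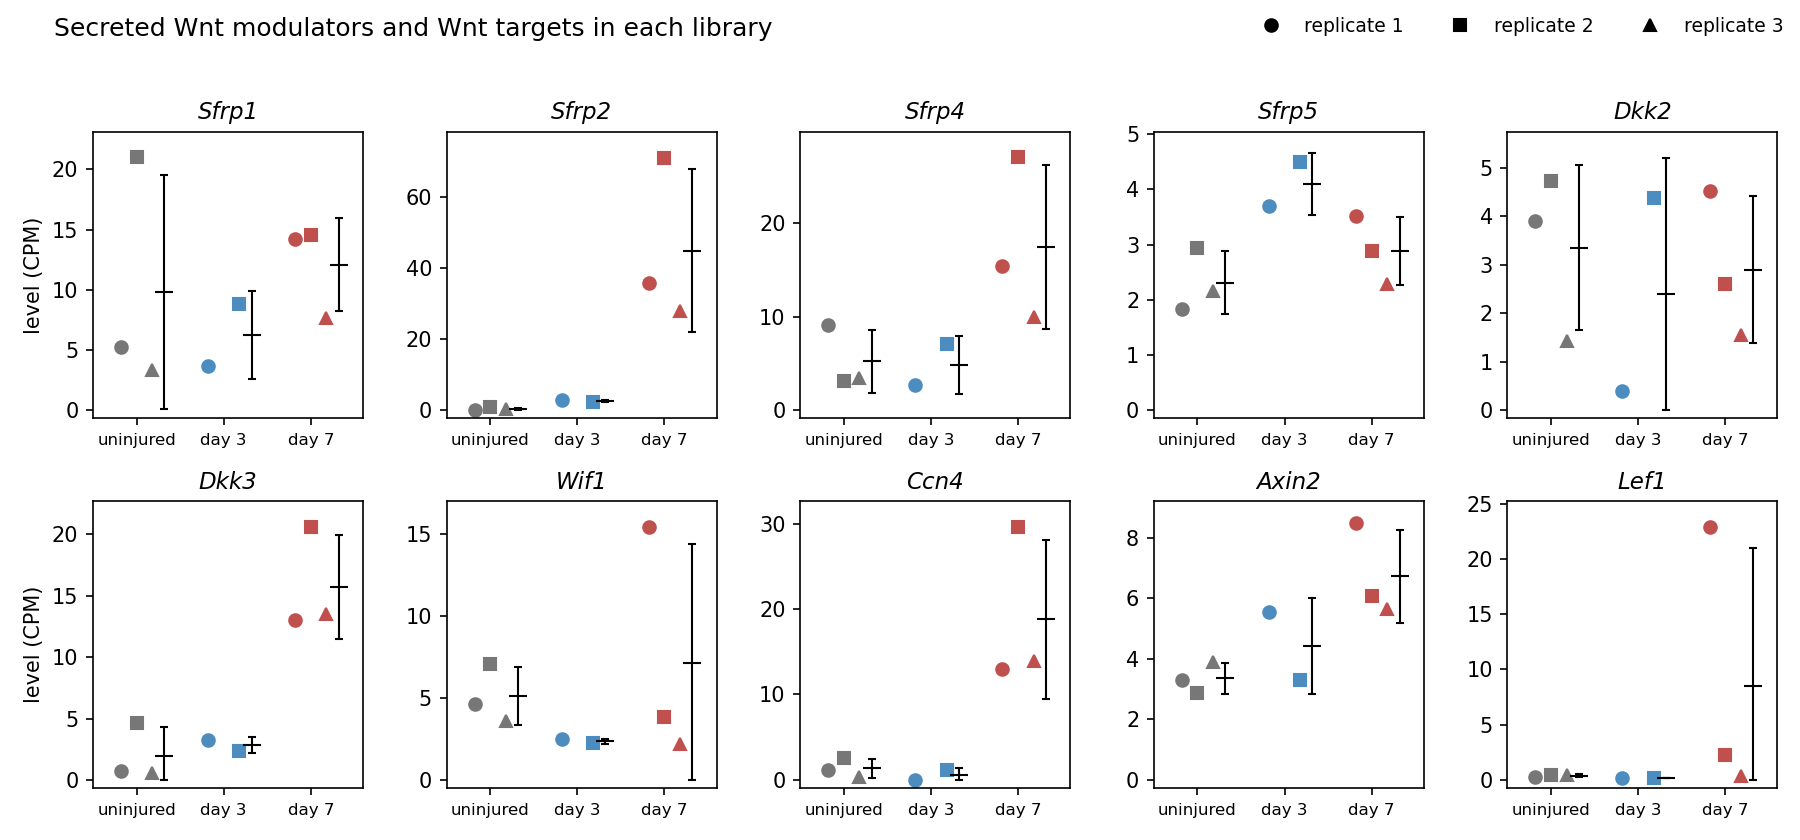
Level in CPM of each of the 10 genes (1 panel per gene, vertical axis in CPM) in uninjured, day 3 and day 7 libraries. Points are libraries, with the shape giving the replicate number, and black bars are the group mean ± SD, drawn no lower than 0. Sfrp2, Dkk3 and Ccn4, and by a small margin Sfrp4 and Axin2, are higher in all 3 day 7 libraries than in any other library. Lef1, Wif1 and Axin2 have their highest level in day 7 replicate 1.

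Sfrp2, the frizzled-related gene with the largest change, was at 35.7, 71 and 27.9 CPM in replicates 1, 2 and 3 of day 7, against 0, 0.857 and 0.289 CPM in uninjured replicates 1, 2 and 3. These are 315, 761 and 233 reads against 0, 14 and 2 reads, and the absence of a read in uninjured replicate 1 allows up to 0.366 CPM (3 counts, counting error only). All day 7 libraries lay far above all uninjured ones, and the lowest of them was 27.9 CPM. The log2 fold change was 6.56 ± 0.66 (SE), a fitted 94.1-fold rise (edgeR adjusted p = 9.44e-04). In size of rise it stood at place 50 of the 18656 genes tested. The call held in all 8 fits that left out a library (highest adjusted p = 0.0061), but the size leaned on uninjured replicate 2, without which the log2 fold change was 8.24. In the deposited table, whose coordinates do not match GRCm38 although the processing notes name mm10, so that their build is uncertain, Sfrp2 (ENSMUSG00000027996.14) spans chromosome 3 from 83673628 to 83681623 on the plus strand, and the gene Gm26771 on the opposite strand, which overlaps it, held 10 reads over all libraries.

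The promoters of Sfrp2, the gene with the largest rise of the 10, and of the canonical targets Axin2 and Lef1 are shown because targets of beta-catenin are found through Tcf and Lef motifs. Each is given as the 250 bases before a RefSeq start site in GRCm38.p6, 5′ to 3′. Lef1 has 4 such windows, of which the one shown, at its most downstream annotated start, was picked because it alone holds a motif. Capitals mark the letters of a Tcf and Lef consensus, searched on both strands as NNCAAAG with AA, AT, TA or TT in place of NN. They lie at chr3:83766071-83766320, chr11:108920099-108920348 and chr3:131156044-131156293, all on the plus strand.
Sfrp2: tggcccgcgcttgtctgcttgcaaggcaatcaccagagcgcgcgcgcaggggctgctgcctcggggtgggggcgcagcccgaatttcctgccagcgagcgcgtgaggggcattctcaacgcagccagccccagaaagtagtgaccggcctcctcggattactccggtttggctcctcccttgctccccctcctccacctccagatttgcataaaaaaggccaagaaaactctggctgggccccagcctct
Axin2: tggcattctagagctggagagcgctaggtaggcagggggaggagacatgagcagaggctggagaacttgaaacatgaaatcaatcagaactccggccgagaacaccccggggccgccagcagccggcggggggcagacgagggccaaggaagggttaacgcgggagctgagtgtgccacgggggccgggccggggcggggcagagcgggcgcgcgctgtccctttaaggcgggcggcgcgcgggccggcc
Lef1: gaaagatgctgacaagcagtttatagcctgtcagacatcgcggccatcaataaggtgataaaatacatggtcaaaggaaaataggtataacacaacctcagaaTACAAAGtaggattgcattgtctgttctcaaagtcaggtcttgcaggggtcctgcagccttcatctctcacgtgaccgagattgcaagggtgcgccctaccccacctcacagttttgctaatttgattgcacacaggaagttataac
RefSeq windows were found for 6 of the 10 genes (Sfrp2, Sfrp5, Dkk2, Wif1, Axin2 and Lef1), 9 windows in all. Of these 1 held such a motif, that of Lef1 shown, as TACAAAG on the plus strand starting 147 bases before the start site, where 14.8% of 32851 windows of all genes held at least 1. The windows of Sfrp2 and Axin2 had a G and C content of 63.6% and 69.2%, and the 4 windows of Lef1 66.4%, 66.4%, 50.8% and, for the one shown, 44.8%, against a median of 52.4% over all windows. A match is a run of letters and not a bound site, and the absence of a match concerns these windows alone.

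For Sfrp2, day 3 lay between the other groups. In day 3 replicates 1 and 2 Sfrp2 was at 2.88 and 2.35 CPM, above every uninjured library and far below every day 7 one. Against uninjured skin this was a log2 fold change of 2.44 ± 0.74 that did not pass (edgeR adjusted p = 0.241) and was 4.13 without uninjured replicate 2 (adjusted p = 0.194). It passed in DESeq2 (adjusted p = 0.0164). Day 7 against day 3 gave 4.11 ± 0.67 (edgeR adjusted p = 0.0557), also not passed. The day 7 against day 3 value passed in DESeq2 (adjusted p = 2.89e-10), in edgeR with DESeq2 size factors or with only those groups in the fit (adjusted p = 0.0498 and 0.039) and without uninjured replicate 1 or 2 (adjusted p = 0.0267 and 0.0452).

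The other frizzled-related genes did not pass. Levels of Sfrp4 were 15.4, 27.1 and 9.94 CPM in replicates 1, 2 and 3 of day 7, against 9.15, 3.12 and 3.47 CPM in uninjured replicates. The groups did not overlap, though day 7 replicate 3 and uninjured replicate 1 were close, and the log2 fold change of 1.75 ± 0.54 missed the threshold (edgeR adjusted p = 0.0709). It passed in DESeq2 (adjusted p = 0.0157) and without day 7 replicate 3 (adjusted p = 0.0284). At day 3, Sfrp4 was at 2.67 and 7.06 CPM, within the uninjured range for replicate 2 and just under it for replicate 1.

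The level of Sfrp1 was 14.2, 14.6 and 7.67 CPM in the day 7 libraries 1, 2 and 3, against 5.24, 21 and 3.32 CPM in uninjured replicates 1, 2 and 3. The highest of all 8 libraries was thus uninjured replicate 2, and the groups overlapped (log2 fold change 0.27 ± 0.61, edgeR adjusted p = 0.799). The sign depended on 1 library, since the log2 fold change was -0.03 without uninjured replicate 1 and -0.13 without uninjured replicate 3. At day 3 Sfrp1 was at 3.7 and 8.87 CPM. Sfrp5 was at 2.28 to 3.51 CPM at day 7, against 1.83 to 2.94 CPM in uninjured skin (log2 fold change 0.31 ± 0.44, edgeR adjusted p = 0.674). In day 3 libraries it was at 3.7 and 4.49 CPM, above every uninjured library, and did not pass (log2 fold change 0.81 ± 0.48, edgeR adjusted p = 0.494).

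Corrected for gene length, the make-up of the family differed between the groups. Of the summed level (CPM per kb) of the 4 frizzled-related genes, Sfrp2 held 0%, 5.31% and 4.69% in uninjured replicates 1, 2 and 3 and 28% and 15.2% in day 3 replicates 1 and 2. In day 7 replicates 1, 2 and 3 it held 65.4%, 74.4% and 70.9%. The shares of the groups did not overlap. The sum over the 4 genes was 25.3, 44.3 and 18.3 CPM per kb at day 7, against 4.35, 7.5 and 2.86 CPM per kb in uninjured skin. Frzb, a further secreted frizzled-related gene, was read with the other inhibitors and is not in this sum. Its mean was 0.293 CPM per kb at day 7 and 0.377 CPM per kb in uninjured skin.

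**Figure D2:**
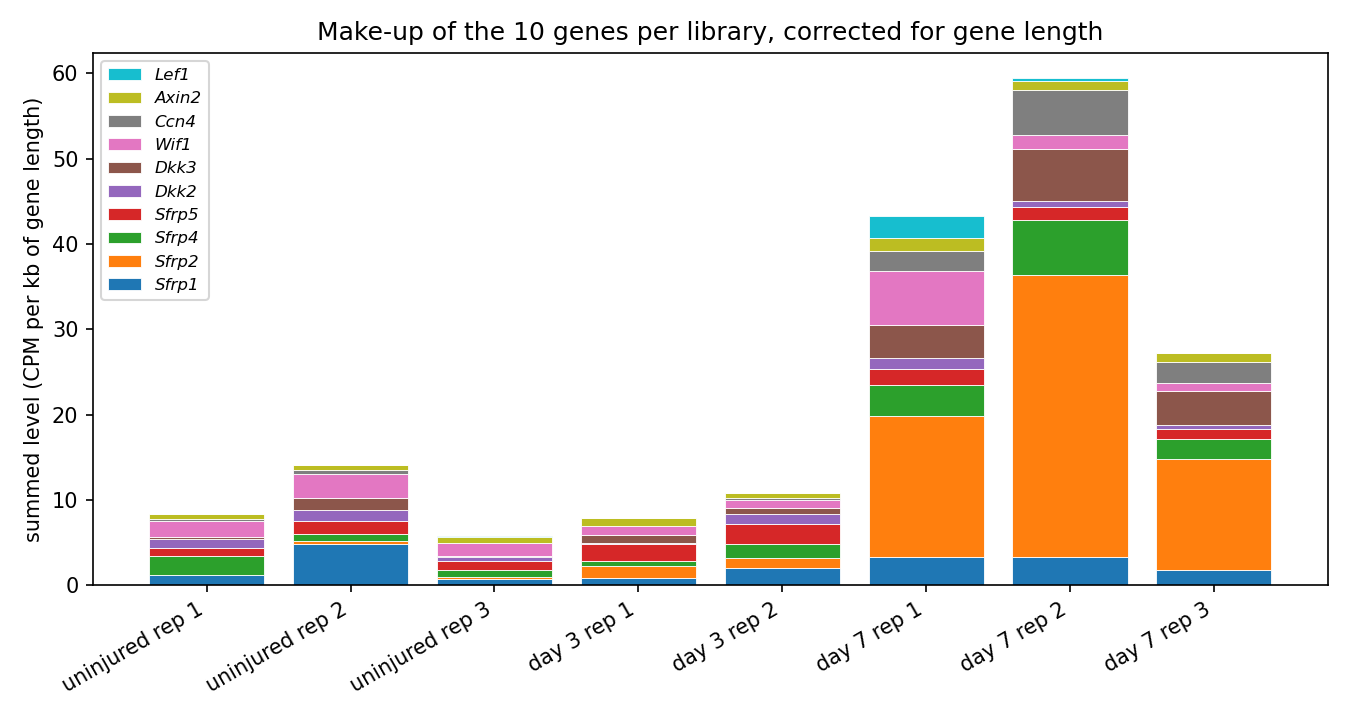
Stacked level of the 10 genes in CPM per kb of gene length (vertical axis) in each of the 8 libraries, from uninjured to day 7, 1 colour per gene. The Sfrp2 segment is 16.6, 33 and 13 CPM per kb in day 7 replicates 1, 2 and 3 and at most 1.34 CPM per kb elsewhere.

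By level per length, Sfrp2 was the highest of the 10 genes in all 3 day 7 libraries and stood at place 8, 9 or 10 in uninjured ones. At day 7 its mean of 20.8 ± 10.7 CPM per kb (SD, n = 3) was followed by Dkk3 (4.68 ± 1.26), Sfrp4 (4.18 ± 2.09), Ccn4 (3.38 ± 1.67), Wif1 (2.94 ± 2.97) and Sfrp1 (2.77 ± 0.884), and these 5 did not differ from their neighbours beyond the spread. Sfrp5, Axin2, Lef1 and Dkk2 came last, at 1.52, 1.22, 0.966 and 0.783 CPM per kb. In uninjured skin Sfrp1 (2.25 ± 2.22 CPM per kb) and Wif1 (2.1 ± 0.726) were highest and not apart, followed by Sfrp4 (1.26 ± 0.81), Sfrp5 (1.22 ± 0.3), Dkk2 (0.905 ± 0.46), Axin2 (0.61 ± 0.0932) and Dkk3 (0.592 ± 0.688), each within the spread of the next. Ccn4, Sfrp2 and Lef1 were lowest there, at 0.241 ± 0.201, 0.177 ± 0.203 and 0.0443 ± 0.0147 CPM per kb. At day 3 Sfrp5 was highest in both libraries, with a mean of 2.16 ± 0.294 CPM per kb (n = 2).

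The Dickkopf genes went separate ways. Dkk3, a divergent member of the Dickkopf family, was at 13, 20.6 and 13.5 CPM in replicates 1, 2 and 3 of day 7, against 0.732, 4.65 and 0.578 CPM in uninjured replicates 1, 2 and 3. No day 7 library overlapped an uninjured one, and uninjured replicate 2 stood above its fellows. Dkk3 rose with a log2 fold change of 2.87 ± 0.66 (edgeR adjusted p = 0.0266). Fits lacking uninjured replicate 1, uninjured replicate 3, day 7 replicate 1 or day 7 replicate 2 no longer made the call (edgeR adjusted p of 0.0648 to 0.101), and in the fit lacking uninjured replicate 2 the log2 fold change was 4.55 (adjusted p = 0.0068). At day 3 Dkk3 was at 3.29 and 2.35 CPM, inside the uninjured range. Dkk3 (ENSMUSG00000030772.7) lies, in the table, on chromosome 7 from 111715224 to 111758264 on the minus strand.

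Dkk2 was at 4.53, 2.61 and 1.56 CPM in replicates 1, 2 and 3 of day 7, against 3.9, 4.72 and 1.44 CPM in uninjured replicates. The ranges overlapped almost wholly and the log2 fold change was -0.23 ± 0.71 (edgeR adjusted p = 0.857). Its lowest value was in day 3 replicate 1, at 0.411 CPM or 2 reads, whereas day 3 replicate 2 was at 4.38 CPM.

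Wif1, the inhibitor that binds Wnt proteins directly, was at 15.4, 3.83 and 2.16 CPM in replicates 1, 2 and 3 of day 7, against 4.63, 7.04 and 3.61 CPM in uninjured replicates. Only day 7 replicate 1 lay above the uninjured range, and day 7 replicate 3 lay below it. The log2 fold change was 0.47 ± 0.63 (edgeR adjusted p = 0.659) and became -0.78 without day 7 replicate 1 (adjusted p = 0.483). At day 3 Wif1 was at 2.47 and 2.25 CPM, below every uninjured library, and did not pass (log2 fold change -1.13 ± 0.77, edgeR adjusted p = 0.549).

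Among the targets, Ccn4, a secreted matricellular protein first described as induced by Wnt1 and earlier called Wisp1, was at 13, 29.6 and 13.9 CPM in replicates 1, 2 and 3 of day 7, against 1.22, 2.51 and 0.289 CPM in uninjured replicates. All day 7 libraries were above all uninjured ones. Ccn4 rose with a log2 fold change of 3.7 ± 0.73 (edgeR adjusted p = 0.0162). Fits lacking uninjured replicate 1 or day 7 replicate 2 no longer made the call (edgeR adjusted p = 0.0739 and 0.077), and without uninjured replicate 2 the log2 fold change was 4.58 (adjusted p = 0.0281). At day 3 Ccn4 had no read in replicate 1, which allows up to 0.617 CPM, and 11 reads or 1.18 CPM in replicate 2, so that unlike Sfrp2 it was not above the uninjured range there. Day 7 against day 3 gave a log2 fold change of 4.73 ± 0.97 that did not pass in edgeR (adjusted p = 0.143) and passed in DESeq2 (adjusted p = 2.27e-06). Its size hung on day 3, where the log2 fold change was 3.98 without replicate 1 and 10.43 without replicate 2, which leaves a day 3 library with no read. Ccn4 (ENSMUSG00000005124.11) lies, in the table, on chromosome 15 from 66763169 to 66795050 on the plus strand.

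Axin2, whose promoter window held no such motif, is a scaffold of the complex that degrades beta-catenin and a widely used readout of canonical Wnt signalling. It was at 8.49, 6.07 and 5.63 CPM in replicates 1, 2 and 3 of day 7, against 3.29, 2.88 and 3.9 CPM in uninjured replicates. The groups did not overlap, and the difference was small beside those of Sfrp2 and Ccn4. Its log2 fold change of 1.01 ± 0.4 did not pass (edgeR adjusted p = 0.134), and ranged from 0.8 to 1.12 over the 8 fits without a library. At day 3 Axin2 was at 5.55 and 3.31 CPM in replicates 1 and 2, of which replicate 1 was above the uninjured range. The gene Gm11670 on the opposite strand, which overlaps Axin2, held 8 reads over all libraries.

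Lef1, the transcription factor that partners beta-catenin and is abundant in the growing hair follicle, was at 22.9, 2.24 and 0.359 CPM in replicates 1, 2 and 3 of day 7, against 0.244, 0.49 and 0.433 CPM in uninjured replicates. Its high mean at day 7 came from replicate 1 (202 reads, against 24 and 3 in replicates 2 and 3), and replicate 3 lay within the uninjured range. The log2 fold change of 4.36 ± 1.2 did not pass in edgeR (adjusted p = 0.0506), and it passed in DESeq2 (adjusted p = 5.37e-04), in edgeR with DESeq2 size factors or upper-quartile scaling (adjusted p = 0.0493 and 0.0485) and without day 3 replicate 2 or day 7 replicate 3 (adjusted p = 0.0489 and 0.00761). Without day 7 replicate 1 or 2 the gene fell below the filter on low counts and got no value. At day 3 Lef1 had 1 and 2 reads. Set against those 3 reads, the day 7 level was 38.9 times as high over pooled reads, with an exact 95% interval of 13.1 to 190 for counting error only. Without day 7 replicate 1, a setting added after the values were seen, it was 6.71 times as high (2.07 to 34.6, from 27 reads).

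Keratins of the inner root sheath of the hair follicle split day 7 in the same order as Lef1. Krt71 was at 410, 13 and 4.19 CPM and Krt25 at 430, 9.52 and 1.56 CPM in replicates 1, 2 and 3 of day 7, against at most 0.551 and 0.867 CPM in uninjured skin. Wif1 had the same order of replicates, as had the summed endothelium markers (463, 409 and 125 CPM). So had Axin2 (8.49, 6.07 and 5.63 CPM), Dkk2 (4.53, 2.61 and 1.56 CPM) and Sfrp5 (3.51, 2.89 and 2.28 CPM), so that the order was not particular to Lef1 and Wif1. The summed level of the 10 keratinocyte and hair follicle markers was 1510 to 2340 CPM in uninjured skin, 1070 and 4390 CPM in replicates 1 and 2 of day 3, and 6060, 1700 and 1480 CPM in replicates 1, 2 and 3 of day 7. None of the 10 was at 0 in a day 7 or day 3 library, and in uninjured replicates 1 and 3 Krt71 was at 0. Day 3 replicate 2, with its high sum, had Krt71 and Krt25 at 1.18 and 1.82 CPM and Lef1 at 0.214 CPM. The summed level of 8 markers of T cells, which also use Lef1, was 14, 16.3 and 11.5 CPM at day 7, against 5.05 to 9.68 CPM in uninjured skin, and none of the 8 was at 0 at day 7. The part of these cells in the Lef1 and Wif1 levels was not tested.

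**Figure D3:**
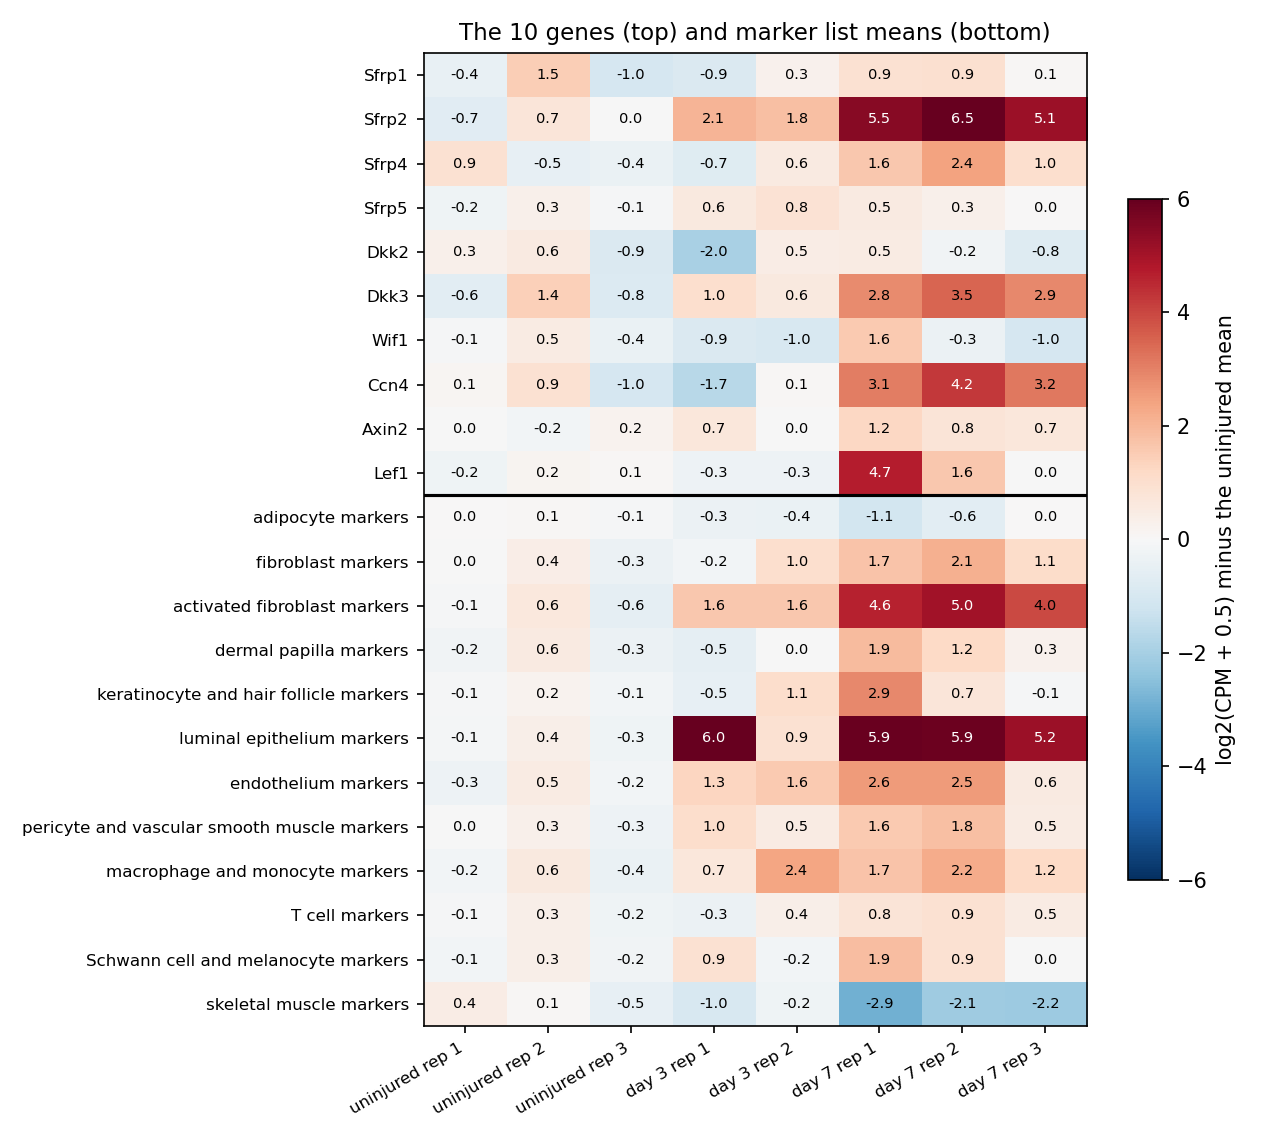
Colour map of the 10 genes (rows above the line) and of the mean over each marker list (rows below it) in the 8 libraries, as log2(CPM + 0.5) minus the mean of the uninjured libraries, with the value printed in each cell. Sfrp2, Dkk3 and Ccn4 are high in all 3 day 7 libraries, as is the activated fibroblast list (4.62, 5.04 and 3.97), whereas Lef1 is high in day 7 replicate 1, where the keratinocyte and hair follicle list is also highest (2.88).

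For Sfrp2, Dkk3 and Ccn4 the order of day 7 replicates was different, with replicate 2 highest for all 3 genes, as it was for 7 of the 12 marker sums (fibroblast, activated fibroblast, dermal papilla, luminal epithelium, pericyte, macrophage and T cell). The summed level of 11 fibroblast markers was 8300, 12600 and 6340 CPM in replicates 1, 2 and 3 of day 7, against 1730 to 2250 CPM in uninjured skin, and that of 7 activated fibroblast markers was 912, 1370 and 743 CPM, against 21.8 to 50.3 CPM. Of the fibroblast list 6 of 11 genes rose, of the activated fibroblast list 7 of 7, and 0 fell in either. Beside these and the list counts below, 5.9% of all genes tested were called higher and 1.77% lower. None of either list was at 0 at day 7, and among uninjured libraries only Tnc in replicate 3 was. Within uninjured skin, replicate 2 was highest for Sfrp2, Dkk3 and Ccn4 and also for 11 of the 12 marker sums, all but skeletal muscle. At day 3 the activated fibroblast sum was 173 and 110 CPM in replicates 1 and 2, above the uninjured range, as Sfrp2 was and Dkk3 and Ccn4 were not. Genes on other marker lists were called higher at day 7 too. These were all 8 luminal epithelium, 6 of 8 endothelium and 3 of 7 pericyte and vascular smooth muscle markers. So were 3 of 8 macrophage and monocyte, 2 of 5 tested dermal papilla and 2 of 10 keratinocyte and hair follicle markers. For these 3 lists DESeq2 called 6, 2 and 0 higher, beside 8.39% of all genes. Of 6 Schwann cell and melanocyte markers 1 was called higher and 1 lower. Day 7 and uninjured sums overlapped for the endothelium, pericyte, keratinocyte and Schwann cell lists. The summed level of the 8 dermal papilla markers was 88.4, 110 and 44.1 CPM in replicates 1, 2 and 3 of day 7, against 11 to 28.1 CPM in uninjured skin. Most of it at day 7 was Crabp1 (29.5, 58.4 and 32.8 CPM) and Sox18 (27.6, 38.6 and 5.27 CPM). Corin, Alx4, Sox2, Rspo3, Bmp4 and Lepr were each highest in replicate 1 of day 7. The list mean of log2(CPM + 0.5), relative to uninjured skin, was 1.91, 1.18 and 0.26 in day 7 replicates 1, 2 and 3. Unlike the sum, this mean thus had the order of replicates seen for Lef1. The luminal epithelium mean was also highest in replicate 1, by a small margin (5.92, 5.9 and 5.15). The mean of Corin was 0.535 CPM at day 7 and 0.55 CPM in uninjured skin. The part of RNA from fibroblasts or these other cells in the rises of Sfrp2, Dkk3 and Ccn4 was not tested.

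Genes with profiles closest to those of the 4 most abundant members, by root mean square difference of centred log2(CPM + 0.5) over the 8 libraries among 11813 genes, differed by member. Closest to Sfrp2 were Spp1, which encodes osteopontin (0.52), Postn, which encodes the matrix protein periostin (0.52), and Cthrc1, a secreted collagen triple helix protein (0.61), of which Postn and Cthrc1 are on the activated fibroblast list. Spp1 was at 59.2, 85.4 and 39.5 CPM at day 7, against 0.976, 0.674 and 0.722 CPM in uninjured skin. Closest to Ccn4 were C1qtnf2 (0.48), Crabp1, on the dermal papilla list (0.6), and Tmem119 (0.62). Sfrp4 was closest to Tnfaip6, a hyaluronan-binding protein (0.24), Lhfp (0.38) and Pdia5 (0.4). Sfrp1 was closest to Ggct (0.28), Asprv1, a protease of the upper epidermis (0.28), and Cenps (0.29). Asprv1 had its maximum of 241 CPM in uninjured replicate 2, as Sfrp1 had. These are descriptions over libraries of 3 groups, in which any 2 genes that differ between groups in the same direction and to a like extent come out alike.

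At day 3 against uninjured skin, 0 of the 10 genes passed in edgeR, where 0.0107% of all genes tested were called higher and 0% lower. At an unadjusted p under 0.05, 1 was higher (Sfrp2) and 0 lower, against 7.57% and 5.39% of all genes tested, and DESeq2 called 1 higher and 0 lower, against 1.86% and 0.567%. The unadjusted count of 1 in 10 was near the share over all genes. Day 3 libraries lay above all uninjured ones for 2 of the 10 (Sfrp2 and Sfrp5), where 16.9% of all genes tested did so, and below them for 2 (Wif1 and Lef1), where 17.2% did. With 2 libraries at day 3, a miss of the threshold does not show that levels were alike. Likewise 0 of the 10 passed at day 7 against day 3 in edgeR, where 0.0858% of all genes tested were called, 0.0643% higher and 0.0214% lower. An unadjusted p under 0.05 was reached by 5 higher and 0 lower, against 6.37% and 4.64% of all genes tested, and DESeq2 called 4 higher and 0 lower, against 0.844% and 0.487%. Day 7 libraries lay above both day 3 libraries for 6 of the 10, where 14.2% of all genes tested did so, and below them for Sfrp5, where 11.4% did. The comparisons share libraries, day 7 and day 3 the uninjured ones and both day 7 comparisons the day 7 ones, so their values are not independent.

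**Figure D4:**
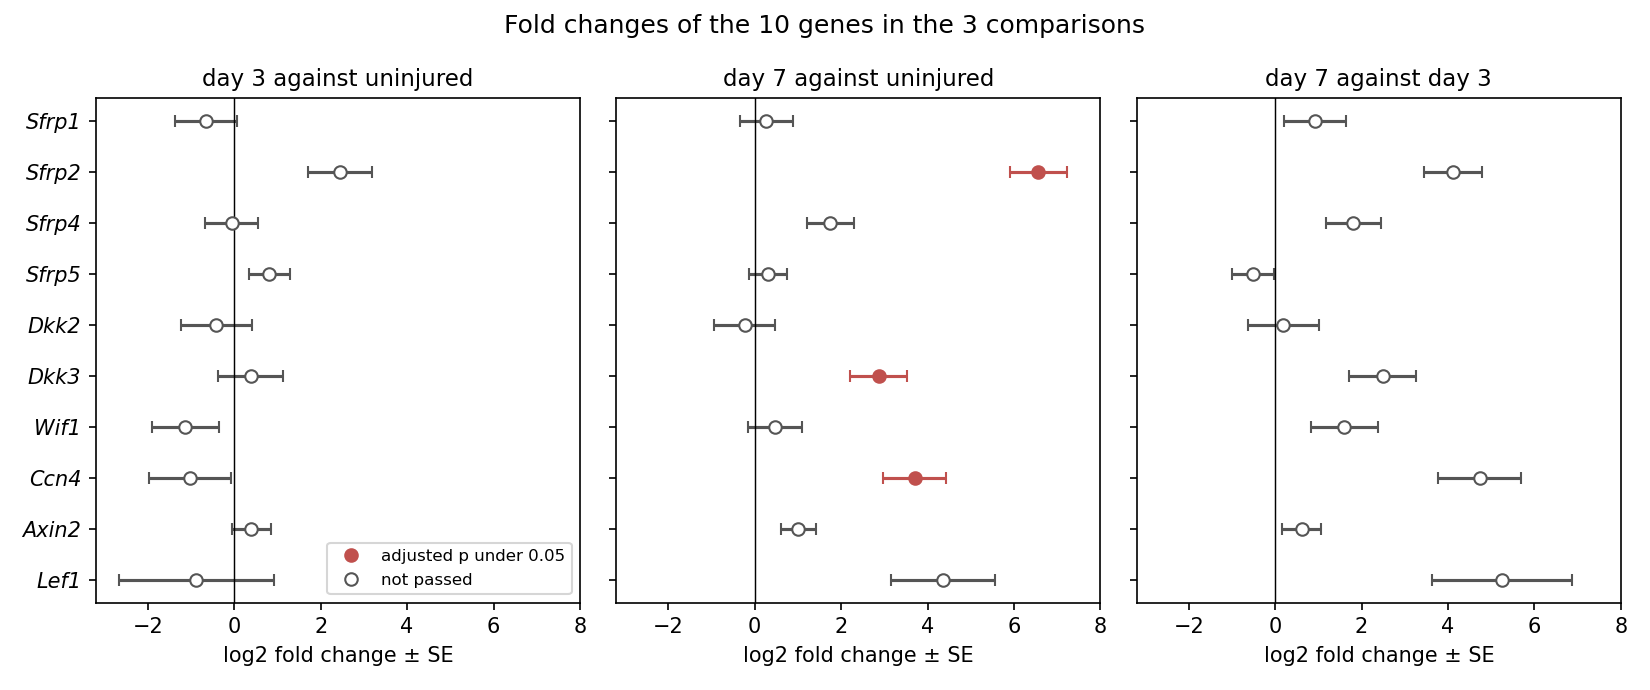
Log2 fold change ± SE (horizontal axis) of each of the 10 genes at day 3 against uninjured, day 7 against uninjured and day 7 against day 3. Filled red points passed edgeR's test at an adjusted p under 0.05: Sfrp2 (6.56), Dkk3 (2.87) and Ccn4 (3.7) at day 7 against uninjured, and none in the other panels.

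The rest of the pathway was read from lists of 91 further genes by role, of which 74 passed the filter. Of these, 7 rose and 1 fell at day 7 against uninjured skin, and 66 did not pass, beside the 5.9% and 1.77% of all genes. Their median log2 fold change was 0.47, against 0.04 over all genes. At day 3 against uninjured skin and at day 7 against day 3, 0 passed in edgeR. At day 3, 8 of the 74 were higher and 9 lower at an unadjusted p under 0.05, beside the 7.57% and 5.39% of all genes. DESeq2 called 1 higher and 1 lower there, beside 1.86% and 0.567%. At day 7 against day 3, 15 were higher and 2 lower at an unadjusted p under 0.05, beside 6.37% and 4.64%. For that comparison DESeq2 called 2 higher and 0 lower, beside 0.844% and 0.487%. The day 7 count of 7 fell to 2 or 3 without any 1 uninjured library or day 7 replicate 1 or 2, and was 18 without day 7 replicate 3.

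Of 19 Wnt ligands 11 were tested, and Wnt4 alone passed in edgeR. DESeq2 called 3 of the ligands higher at day 7 against uninjured skin, beside 8.39% of all genes. Wnt4 was at 42.8, 27.2 and 14 CPM in replicates 1, 2 and 3 of day 7, against 11.2, 9.55 and 5.63 CPM in uninjured replicates, with no overlap (log2 fold change 1.66 ± 0.4, edgeR adjusted p = 0.0339). Wnt5a, the most abundant ligand gene by CPM with Wnt4, was at 32 CPM at day 7 and 20 CPM in uninjured skin on average and did not pass (adjusted p = 0.26). Of the genes of Wnt secretion, Wls, the carrier of Wnt proteins to the cell surface, was at a mean of 79.7 CPM at day 7 and 76 CPM in uninjured skin, and Porcn, the enzyme that acylates them, at 9.63 CPM at day 7 and 7.63 CPM in uninjured skin. Neither passed (adjusted p = 0.859 and 0.603).

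Of 15 receptors and co-receptors 2 rose and 1 fell. Ror2, a receptor tyrosine kinase for Wnt5a, was at 11.7, 5.41 and 4.43 CPM in the day 7 libraries, against 0.366, 0.674 and 0.867 CPM in uninjured replicates, and rose with a log2 fold change of 3.47 ± 0.58 (edgeR adjusted p = 0.00848), a call that held in all 8 fits without a library. Fzd6 rose with 2.09 ± 0.53 (adjusted p = 0.0384), though its day 7 replicate 3 at 3.83 CPM was barely above the highest uninjured library at 3.66 CPM. Fzd9 fell. It had 3 reads over the day 7 libraries, against 192 over the uninjured ones, where it was at 12.9, 3.25 and 4.77 CPM, and the pooled level was 0.0176 times that of uninjured skin (exact 95% interval 0.0036 to 0.0523, counting error only, edgeR adjusted p = 0.00733). At day 3 it was at 0.206 and 1.07 CPM. In the same comparison all 8 skeletal muscle markers fell, and their sum was 9650, 6240 and 4320 CPM in uninjured replicates 1, 2 and 3. Replicate 1 was thus highest for both, while replicates 2 and 3 had opposite orders, and day 3 replicate 2, with a sum of 4690 CPM, was above uninjured replicate 3 in the sum and below it in Fzd9. Fzd9's log2 fold change of -5.86 was -5.08 without uninjured replicate 1 and -6.57 without day 7 replicate 2. The part of muscle RNA in the fall of Fzd9 was not tested. The receptor genes highest by CPM, Fzd4 and Ryk, were at 94.1 and 70.6 CPM at day 7, against 129 and 70.9 CPM in uninjured skin, and did not pass (adjusted p = 0.387 and 0.985).

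**Figure D5:**
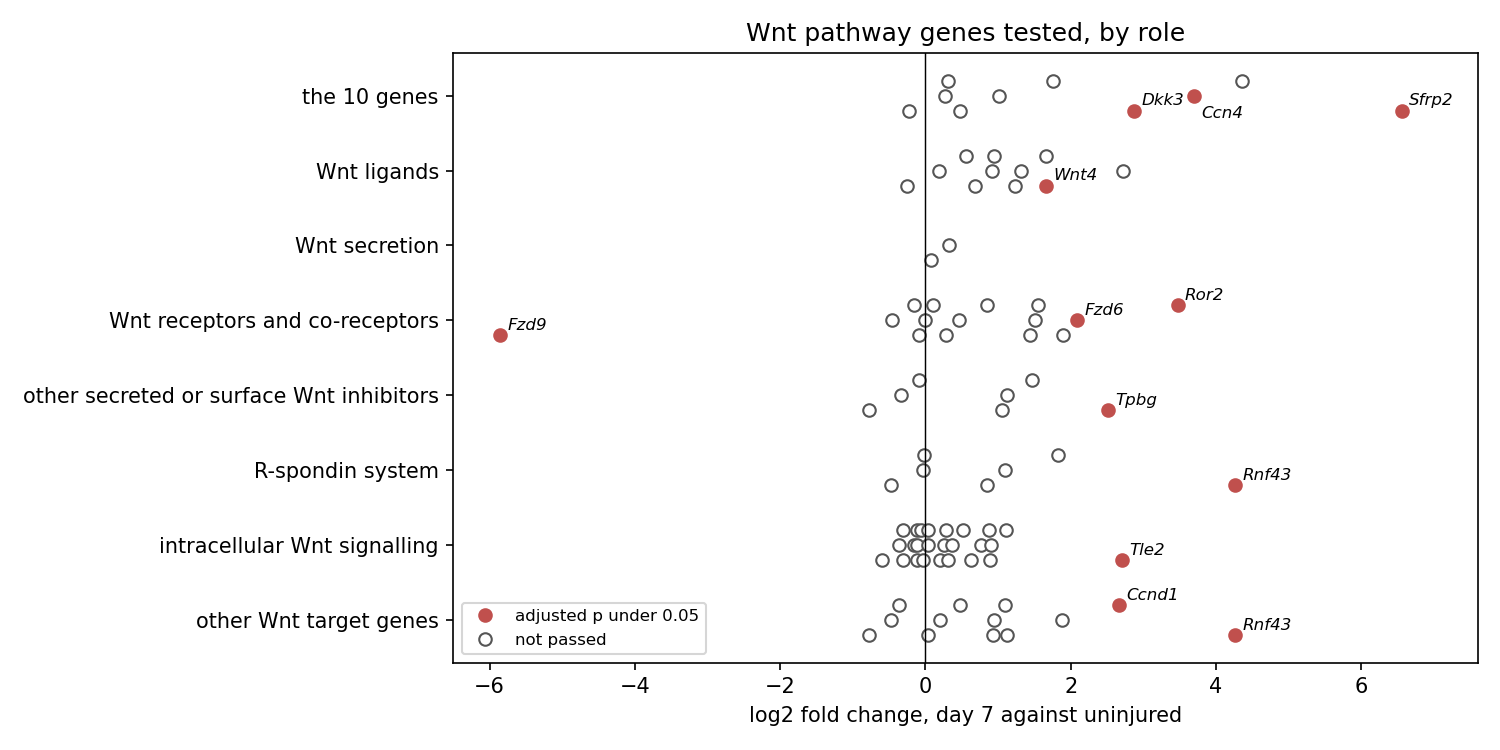
Log2 fold change at day 7 against uninjured (horizontal axis) of each tested gene, in rows by role, with the 10 genes on top. Filled red points with names passed at an adjusted p under 0.05. Rnf43 appears in 2 lists. Fzd9, at -5.86, is the only called point below 0.

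Of 13 other secreted or surface inhibitors 7 were tested, and Tpbg, a surface protein known to inhibit Wnt signalling in zebrafish, rose with 2.51 ± 0.47 (edgeR adjusted p = 0.0131). It was at 11.2, 13 and 6.23 CPM at day 7, against 2.56, 1.59 and 1.16 CPM in uninjured skin. The most abundant inhibitor gene by CPM was Apcdd1, a membrane protein that binds Wnt and Lrp5. It had a mean of 155 CPM at day 7 and 267 CPM in uninjured skin, with no overlap, and did not pass in edgeR (log2 fold change -0.78 ± 0.26, adjusted p = 0.0861), while DESeq2 called it lower (adjusted p = 0.0432). Kremen1, a co-receptor of Dickkopf proteins, was at 23.1 CPM at day 7 and 24.6 CPM in uninjured skin on average (adjusted p = 0.862).

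In the R-spondin system, 1 of 7 tested genes rose. This was Rnf43, a ubiquitin ligase that removes Frizzled from the surface and is itself a Wnt target, at 10.5, 3.27 and 1.56 CPM in the day 7 libraries, against 0.366, 0.245 and 0.144 CPM in uninjured replicates (log2 fold change 4.26 ± 0.83, edgeR adjusted p = 0.0151, and 3.18 without day 7 replicate 1). Rspo1, the R-spondin gene highest by CPM, was at a mean of 87.6 CPM at day 7 and 88.7 CPM in uninjured skin, and the receptor Lgr4 at 21.2 CPM at day 7 and 21.9 CPM in uninjured skin (adjusted p = 0.976 and 0.937). Of 25 intracellular genes 1 rose, the co-repressor Tle2, with 2.71 ± 0.57 (adjusted p = 0.0197), and their median log2 fold change was 0.2. The kinases Csnk1a1 and Csnk1d, highest of this list by CPM, did not pass (adjusted p = 0.87 and 0.309). Of 13 other target genes tested 2 rose, Rnf43 and the cyclin D1 gene Ccnd1, at 19.6, 9.33 and 6.47 CPM at day 7, against 1.22, 2.02 and 2.31 CPM in uninjured skin (log2 fold change 2.66 ± 0.52, adjusted p = 0.0151). Ccn5, a relative of Ccn4, was at a mean of 33.2 CPM at day 7 and 29.2 CPM in uninjured skin and did not pass (adjusted p = 0.832). Calls of Wnt4, Fzd6, Tpbg, Rnf43, Tle2 and Ccnd1 were each lost in 2 to 5 of the fits without a library, and those of Ror2 and Fzd9 in none of the 8.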

How the data were processed

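The authors deposited raw counts of reads for each gene, 1 column per library. They were made with featureCounts 2.0.8, per the file headers, and the submitters' processing notes also name STAR 2.7.10b, DESeq2 and mm10. Per the labels' protocols, polysomes were pulled down through their GFP tag and each library was prepared from 20 ng RNA. The sources used here give neither strand nor multi-mapping settings, so reads of overlapping genes cannot be told apart. Of 53700 identifiers, 52093 were matched to symbols through GENCODE M21 (GRCm38), of which 1491 shared its start coordinate.

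Counts were scaled by TMM, genes were kept by filterByExpr (min.count 10), and a model with a mean for each group was fitted to the 8 libraries together (5 residual degrees of freedom) with edgeR 4.0.16 in R 4.3.3. Every adjusted p is from its two-sided quasi-likelihood F test with Benjamini-Hochberg adjustment over 18656 genes, unless DESeq2 1.42.0 is named. Fits lacking a library are edgeR fits. The SE is the log2 fold change over the square root of F. CPM is counts over the TMM-scaled library size, and CPM per kb divides it by the table's gene length. Intervals and limits on counts of 0 (3 counts) cover counting error only. The procedure was tested on simulated data with 200 changed genes. Whether replicates came from separate animals is not stated in the labels, so p-values measure the spread between these libraries. The 10 genes, the gene lists and the naming rule were chosen with earlier results of these data known. The rule named the 10 genes, each pathway gene that passed (at most 5 a list), the 2 genes of each list with the highest mean CPM, and the 3 genes (mean of at least 5 CPM) most alike in profile to each of the 4 members with the highest mean CPM. Promoter sequences are RefSeq's (GRCm38.p6).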

Additional observations from a re-analysis of the deposited data

How the results depend on the processing

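At day 7 against uninjured, 1431 genes were called, and 3156 were with no filter, 2501 in DESeq2 and 314 (without uninjured replicate 1) to 4055 (without day 7 replicate 3) in fits lacking a library. At day 3 against uninjured, 2 were called, and 926 were with no filter, 0 with a filter of min.count 50 or with only those groups in the fit, 429 in DESeq2 and 0 to 150 in fits lacking a library. Between day 7 and day 3, 16 were called, and 26 were with upper-quartile scaling, 572 with no filter, 235 in DESeq2 and 5 to 34 in fits lacking a library. Of the 10 genes, 3 rose at day 7 against uninjured, 5 with no filter or in DESeq2 and 1 to 5 in fits lacking a library. At day 3 against uninjured 1 rose with no filter or in DESeq2. Counts at day 7 against day 3 were 5 with no filter, 4 in DESeq2, 1 with DESeq2 size factors or with only those groups in the fit, and 0 to 1 in fits lacking a library. Of the pathway genes, 7 rose and 1 fell at day 7 against uninjured, 15 and 2 with no filter, 12 and 2 in DESeq2, and 2 to 18 and 1 to 2 in fits lacking a library, and with min.count 50, where Fzd9 was not tested, 0 fell. At day 3 against uninjured 2 rose and 1 fell with no filter, 1 and 1 in DESeq2, and 0 to 1 rose in fits lacking a library. With no filter or in DESeq2, 2 rose at day 7 against day 3.

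Signs turned only for values that had not passed. Sfrp4 at day 3 against uninjured was 0.06 with upper-quartile scaling (which moved the median of all genes there by 0.11) and -0.06 with TMM. In fits lacking a library, log2 fold changes ranged at day 7 against uninjured from -0.13 to 1.49 for Sfrp1, -0.7 to 0.11 for Dkk2 and -0.78 to 0.89 for Wif1. At day 3 against uninjured they ranged from -1.46 to 0.57 for Sfrp1, -0.98 to 0.62 for Sfrp4, -3.03 to 0.36 for Dkk2, -0.02 to 2.05 for Dkk3 and -0.01 to 0.71 for Axin2, and at day 7 against day 3 from -0.61 to 2.78 for Dkk2. The cause was not tested.

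The replicate numbers of the titles were not taken to pair the samples, and the values cannot settle whether they do. Deviations from the group mean correlated at -0.09 to 0.22 for same-numbered libraries and at -0.23 to 0.21 for others. Not every library correlated best with its own number. Deviations add up to 0 within a group, so that those of the 2 day 3 libraries mirror each other. With the replicate block, 2131 genes were called at day 7 against uninjured, 7 at day 3 against uninjured and 126 at day 7 against day 3. Of the 10 genes it called 3 at day 7 against uninjured and 2 at day 7 against day 3, namely Sfrp2 (4.29, edgeR adjusted p = 0.00872) and Ccn4 (5.35, edgeR adjusted p = 0.0129). Depth limits Lef1, Ccn4 and Sfrp2 outside day 7, where they had 0 to 41 reads a library.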

Other observations

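Some pathway genes outside the naming rule, chosen here after their values were seen, differed between libraries of 1 group. At day 7, Sostdc1, a secreted inhibitor of Wnt and BMP signalling, was at 15.4, 5.79 and 1.8 CPM in replicates 1, 2 and 3, against 3.78, 5.08 and 2.02 CPM in uninjured replicates, and Tnfrsf19, a receptor and Wnt target of the hair follicle, was at 28.8, 4.76 and 4.19 CPM, against 8.66, 5.51 and 5.63 CPM. Both had the order of replicates seen for Lef1, Wif1, Axin2, Dkk2, Sfrp5, Krt71 and Krt25. At day 3, Wnt5b was at 9.05 and 1.18 CPM and Bambi, a pseudoreceptor of the TGF-beta family, at 31.1 and 1.28 CPM in replicates 1 and 2, where the summed luminal epithelium markers were 1470 and 25.3 CPM. The part of these other cells in the values was not tested.

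Wnt11 was at 8.94, 12.6 and 3.83 CPM at day 7, against 2.81, 2.51 and 2.74 CPM in uninjured skin. It did not pass in edgeR (log2 fold change 1.66 ± 0.47, adjusted p = 0.0548), while DESeq2 called it higher (adjusted p = 0.0187).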
